A study of Mus musculus with 2 samples.

Results

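Gpnmb-expressing lesion macrophages were 722 of the 5145 kept cells of injured mouse spinal cord, 485 of 2975 in the library from cord given an HDAC3 inhibitor and 237 of 2170 in the library from cord given vehicle. Members were chosen by their own transcripts: at least 10 UMIs (counted RNA molecules) of Gpnmb, Ms4a7, F7 and Atp6v0d2 together, fewer than 5 of the microglial genes P2ry12, Tmem119, Gpr34 and Siglech, fewer than 3 of the border macrophage genes Lyve1, Cd163, Mgl2 and Fcna, and fewer than 3 of the cycling genes Mki67 and Top2a. A cell was kept with 500 or more genes, 1000 or more UMIs and no more than 15% of UMIs from mitochondrial genes. Both libraries were made with the 10x Genomics 3' version 3 kit from mouse spinal cord taken 5 days after injury, 1 library per group, and the same date stands in the 2 titles. The labels give neither the compound, strain, sex, age and kind of injury nor how many animals a library pools. There is no replicate check, so the values compare 2 libraries, and every 95% interval covers counting error only. Where a pair of values is marked inhibitor and vehicle, these are the HDAC3 inhibitor library and the vehicle library.

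GPNMB is a transmembrane glycoprotein of lysosomes and the cell surface that phagocytes make when their lysosomes fill with lipid or debris. In an injured cord, macrophages that derive from blood monocytes enter the lesion, where they take up myelin and dying cells, and store or export the lipid. Ms4a7 encodes a membrane protein found in macrophages, F7 is coagulation factor VII, and Atp6v0d2 encodes a subunit of the proton pump that acidifies lysosomes, best known from osteoclasts. HDAC3 removes acetyl groups from histones as the enzyme of the NCoR and SMRT corepressors.

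Gpnmb, which gave most of the UMIs that chose the cells, lies on mouse chromosome 6 from 49036546 to 49070929 on the plus strand (GENCODE M21, mm10). Ms4a7 lies on chromosome 19 from 11321039 to 11336146 on the minus strand. Windows of 250 bases before and 50 after a gene's start were taken from RefSeq on GRCm38.p6 for 3 of the 4 marker genes, Gpnmb, F7 and Ms4a7, the last with a pair of windows. They were searched on both strands for CACGTG and CATGTG, letters known to be bound by the MITF and TFE factors that drive lysosomal genes. The windows of Gpnmb, at chr6:49036268-49036567 on the plus strand, and of Ms4a7 that holds a match, at chr19:11334646-11334945 on the minus strand, are shown with the match in capitals.
Gpnmb: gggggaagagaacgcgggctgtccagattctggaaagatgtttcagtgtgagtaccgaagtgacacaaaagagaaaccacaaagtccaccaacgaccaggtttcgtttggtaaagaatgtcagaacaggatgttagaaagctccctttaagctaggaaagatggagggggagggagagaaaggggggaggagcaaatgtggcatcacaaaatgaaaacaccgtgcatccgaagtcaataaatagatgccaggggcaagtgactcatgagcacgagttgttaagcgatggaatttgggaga
Ms4a7: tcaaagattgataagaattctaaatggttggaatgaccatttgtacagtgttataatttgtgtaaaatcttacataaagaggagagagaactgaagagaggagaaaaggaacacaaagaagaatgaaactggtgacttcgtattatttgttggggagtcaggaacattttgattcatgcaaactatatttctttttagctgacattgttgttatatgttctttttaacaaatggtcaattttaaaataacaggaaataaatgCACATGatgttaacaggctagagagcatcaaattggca
The match in Ms4a7 begins at base 263 of its window and is CATGTG read on the other strand. That window lies inside the span of Ms4a7 given above, not at its first base on the minus strand, 11336146. The other Ms4a7 window, at chr19:11336097-11336396, covers that base and held neither. CATGTG was in 14.2% and CACGTG in 7.15% of all 32851 windows, and the other 3 windows searched held neither. These are matches of letters and were not tested for binding.

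The marker UMIs of a member had a median of 134 in the HDAC3 inhibitor library, with quartiles of 67 and 213 and a highest value of 921. In the vehicle library the median was 159, the quartiles were 82 and 268 and the highest value was 868. Gpnmb gave 86.0% of these UMIs of HDAC3 inhibitor members and 86.4% of those of vehicle members. Its level was 5436 CPM in HDAC3 inhibitor members and 5707 CPM in vehicle members, where CPM is UMIs per 1000000 UMIs of the members of a library. Ms4a7 was at 628 (inhibitor) and 560 (vehicle) CPM and F7 at 112 (inhibitor) and 97.0 (vehicle) CPM. Atp6v0d2 was at 145 CPM in HDAC3 inhibitor members and 238 CPM in vehicle members, a ratio of 0.61 (95% interval 0.57 to 0.65), and the cell richest in it held 11.9% (inhibitor) and 8.03% (vehicle) of those UMIs. All 4 markers were detected in 24.1% of HDAC3 inhibitor members and 30.8% of vehicle members, 3 in 42.3% (inhibitor) and 40.9% (vehicle), 2 in 31.5% (inhibitor) and 26.2% (vehicle) and 1 in 2.06% (inhibitor) and 2.11% (vehicle). The rule used all of these values, so they are descriptions.

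**Figure D1:**
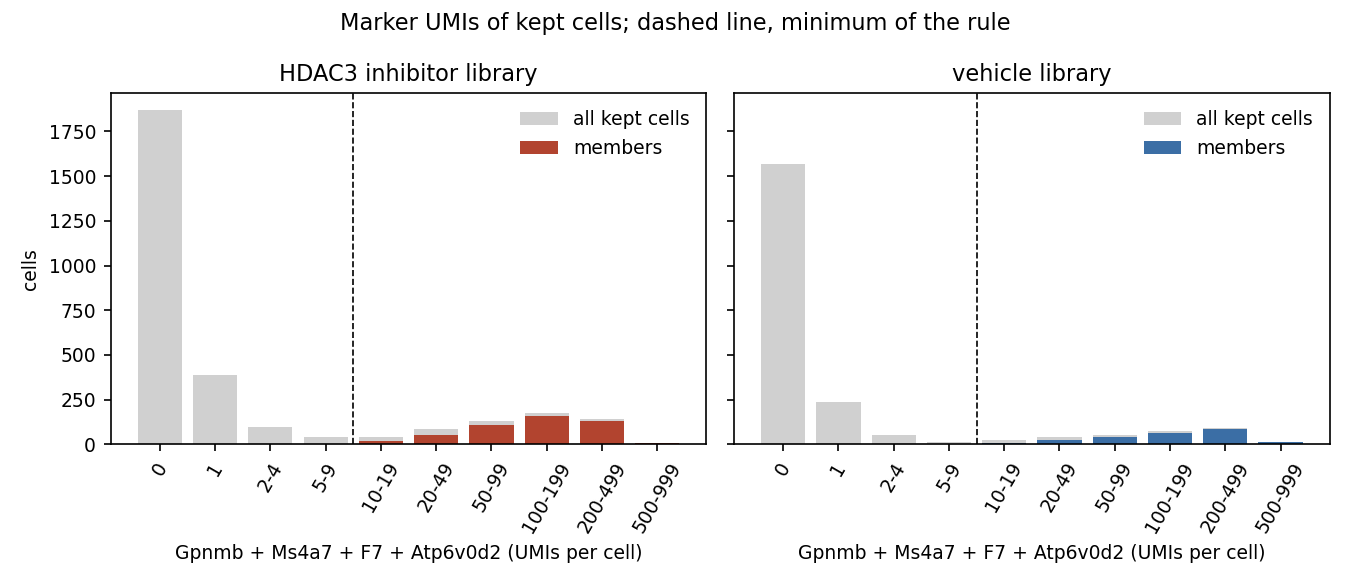
Kept cells (y axis) by their summed UMIs of Gpnmb, Ms4a7, F7 and Atp6v0d2 (x axis), in the HDAC3 inhibitor library (left) and the vehicle library (right); grey bars are all kept cells, coloured bars members, and the dashed line is the minimum of 10 UMIs. Cells with 0 marker UMIs numbered 1869 (inhibitor) and 1567 (vehicle), and few cells, 43 (inhibitor) and 16 (vehicle), held 5 to 9 UMIs, next to the minimum.

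Of 578 HDAC3 inhibitor cells and 298 vehicle cells with at least 10 marker UMIs, 93 (inhibitor) and 61 (vehicle) failed an exclusion, most of them the microglial one, at 70 (inhibitor) and 47 (vehicle) cells. Few cells lay at the minimum: 15 HDAC3 inhibitor members and 3 vehicle members held 10 to 14 marker UMIs, and 19 (inhibitor) and 4 (vehicle) cells that met the exclusions held 5 to 9. In the HDAC3 inhibitor library the cells just inside had 650 CPM of Cd68 and 22002 CPM of Spp1, those just outside 806 and 23387 CPM, and those further inside 1312 and 41189 CPM. In the vehicle library, Spp1 was at 9078 CPM in the cells just inside, 937 CPM just outside and 31959 CPM further inside. The 4 vehicle cells just outside also held 763 CPM of the monocyte gene Plac8.

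Members were 16.3% (95% Clopper-Pearson interval 14.99 to 17.7) of kept HDAC3 inhibitor cells and 10.9% (9.64 to 12.3) of kept vehicle cells, a ratio of 1.49 (1.29 to 1.73). More members and fewer other cells cannot be told apart in such a share. Members were deep cells, with a median of 23891 UMIs and 3866 genes for HDAC3 inhibitor members and 28050 UMIs and 4072 genes for vehicle members, and 11973849 (inhibitor) and 7017751 (vehicle) UMIs in all. A count of 0 in these sums leaves room for 3 UMIs, or 0.251 (inhibitor) and 0.427 (vehicle) CPM. The libraries shared 10 cell barcodes, of which 5 were kept in each, with 0 HDAC3 inhibitor members and 1 vehicle member.

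Macrophage genes that the rule did not use were found in members, but not all were higher there than in the other kept cells. Cd68, a lysosomal membrane protein of macrophages, was at 1303 CPM in HDAC3 inhibitor members and 1214 CPM in vehicle members and was found in 100% (inhibitor) and 99.6% (vehicle) of them. Lyz2, the lysozyme of myeloid cells, was at 35617 (inhibitor) and 42701 (vehicle) CPM, and Adgre1, the gene of the F4/80 antigen, at 156 (inhibitor) and 164 (vehicle) CPM. Fcgr1, a high-affinity IgG receptor, was at 139 (inhibitor) and 118 (vehicle) CPM. Cd68, Lyz2, Adgre1 and Fcgr1 were each higher than in the other kept cells of the library. Csf1r, the receptor for macrophage colony-stimulating factor, was lower, at 162 (inhibitor) and 192 (vehicle) CPM. The other kept cells, which include microglia, held 346 (inhibitor) and 521 (vehicle) CPM of it. Itgam, an integrin of myeloid cells, was at 159 (inhibitor) and 146 (vehicle) CPM in members and 104 (inhibitor) and 156 (vehicle) CPM in the other kept cells. The dendritic cell genes Zbtb46 and Cd209a, the T cell gene Cd3e and the NK gene Nkg7 were at 0 in both libraries, and Sall1, a microglial transcription factor, was at 0.58 (inhibitor) and 0.57 (vehicle) CPM. Of monocyte markers, Ly6c2 was at 94.6 CPM in HDAC3 inhibitor members and 55.7 CPM in vehicle members, Ccr2 at 7.43 (inhibitor) and 16.1 (vehicle) CPM and Plac8 at 3.67 (inhibitor) and 1.14 (vehicle) CPM.

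Little RNA of other cell types was in most members, with single cells as exceptions. The median member held 139 CPM of 8 oligodendrocyte genes among HDAC3 inhibitor members and 162 CPM among vehicle members, but the highest held 64812 (inhibitor) and 20910 (vehicle) CPM. Summed over members, these genes were at 505 (inhibitor) and 366 (vehicle) CPM, 9 neutrophil genes at 228 (inhibitor) and 268 (vehicle) CPM, 8 endothelial genes at 143 (inhibitor) and 110 (vehicle) CPM and 7 Schwann cell genes at 67.6 (inhibitor) and 101 (vehicle) CPM. In the cells that were not members the oligodendrocyte genes were at 14130 (inhibitor) and 12750 (vehicle) CPM and the neutrophil genes at 17660 (inhibitor) and 34642 (vehicle) CPM. Of the neutrophil genes, Retnlg was found in 6.19% (inhibitor) and 17.7% (vehicle) of members and Ngp in 4.12% (inhibitor) and 17.3% (vehicle). The granule protease gene Prtn3 was found in 15.3% (inhibitor) and 11.8% (vehicle) of members, and Mpo, myeloperoxidase, was at 0 in both libraries.

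The most abundant transcripts of the class, in UMIs that 3' counting does not scale with transcript length, were Apoe, Lyz2, Spp1, Fth1 and Ftl1, followed by Ctsd, Malat1, Gm42418, Tmsb4x, Ctsb and Fabp5. Apoe, the main lipid carrier protein of macrophages, was at 63279 CPM in HDAC3 inhibitor members and 76792 CPM in vehicle members. Spp1, which encodes osteopontin, a secreted matrix protein, was at 40904 (inhibitor) and 31812 (vehicle) CPM. The ferritin chains Fth1 and Ftl1 were at 34526 (inhibitor) and 28100 (vehicle) CPM and at 26852 (inhibitor) and 23058 (vehicle) CPM, the lysosomal proteases Ctsd and Ctsb at 13058 (inhibitor) and 12876 (vehicle) CPM and at 9254 (inhibitor) and 9425 (vehicle) CPM, and Fabp5, a fatty acid binding protein, at 8308 (inhibitor) and 6750 (vehicle) CPM. Malat1, a nuclear non-coding RNA, was at 10721 (inhibitor) and 11366 (vehicle) CPM, Gm42418 at 10647 (inhibitor) and 8840 (vehicle) CPM and Tmsb4x, an actin-binding thymosin, at 10375 (inhibitor) and 8705 (vehicle) CPM.

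Other classes were set by rules of the same kind, so their differences from members are descriptions, given within each library. Microglia (338 HDAC3 inhibitor cells and 374 vehicle cells) held little of several genes that members carried. Fabp4, a fatty acid binding protein of adipocytes and macrophages, was at 211 CPM in HDAC3 inhibitor members against 0.51 CPM (2 UMIs) in microglia, and at 239 CPM in vehicle members against 0 in microglia. F13a1, the A chain of coagulation factor XIII, was 166-fold higher in members in the HDAC3 inhibitor library and 119-fold higher in the vehicle library. Mgst1, a membrane glutathione transferase, was 124-fold (inhibitor) and 211-fold (vehicle) higher, and Cd24a, a surface glycoprotein, 127-fold (inhibitor) and 177-fold (vehicle) higher. Members held little Sparc, a secreted matrix protein, with 17.4 CPM against 1973 CPM in microglia in the HDAC3 inhibitor library and 16.4 CPM against 2209 CPM in the vehicle library. Members were the deeper cells, as microglia had medians of 11013 (inhibitor) and 12417 (vehicle) UMIs.

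Monocytes (51 HDAC3 inhibitor cells and 32 vehicle cells) lacked several transcripts that members held. Igf1, insulin-like growth factor 1, was at 205 (inhibitor) and 151 (vehicle) CPM in members and at 0 in monocytes of both libraries, and Bhlhe41, a transcription factor of tissue macrophages, at 116 (inhibitor) and 108 (vehicle) CPM and 0. C1qa, a chain of complement C1q, was 59.0-fold (inhibitor) and 55.0-fold (vehicle) higher in members. Cd300e and Adgre4, surface receptors of monocytes, were at 0 in members of both libraries, against 88.6 and 143 CPM in HDAC3 inhibitor monocytes and 104 and 94.1 CPM in vehicle monocytes. The HDAC3 inhibitor monocytes also carried 7548 CPM of 6 erythroid genes, against 15.3 CPM in vehicle monocytes, 2061 CPM of 8 endothelial genes, against 666 CPM, and 1913 CPM of 8 fibroblast and mural genes, against 17.8 CPM. The part of that RNA in these ratios was not tested. Border-associated macrophages were few, 18 HDAC3 inhibitor cells and 8 vehicle cells, and held 149.5 (inhibitor) and 7874 (vehicle) CPM of the neutrophil genes. Lgals3, the glycan-binding protein galectin-3, was at 4066 (inhibitor) and 3700 (vehicle) CPM in members, against 176 (inhibitor) and 118 (vehicle) CPM in border-associated macrophages. Mrc1, the mannose receptor, was at 8.60 (inhibitor) and 8.98 (vehicle) CPM in members, against 1528 (inhibitor) and 1399 (vehicle) CPM in border-associated macrophages.

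Between the libraries, members differed little across most genes. Of 2155 genes that reached 100 UMIs in all and 50 CPM in the higher library, 16 (0.742%) were at least 1.5-fold higher in HDAC3 inhibitor members and 9 (0.418%) at least 1.5-fold lower. The median log2 ratio was 0.04. The chemokines Ccl2 and Pf4, the arginase Arg1, the haem oxygenase Hmox1 and the scavenger receptor Msr1 were among the 10 highest. The neutrophil gene S100a9, the plasma glutathione peroxidase Gpx3, the integrin Itgax and the transcription factor Nfe2l2 were among the 10 lowest. Hdac3 was at 15.7 CPM in HDAC3 inhibitor members and 18.5 CPM in vehicle members, a ratio of 0.85 (0.67 to 1.07).

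**Figure D2:**
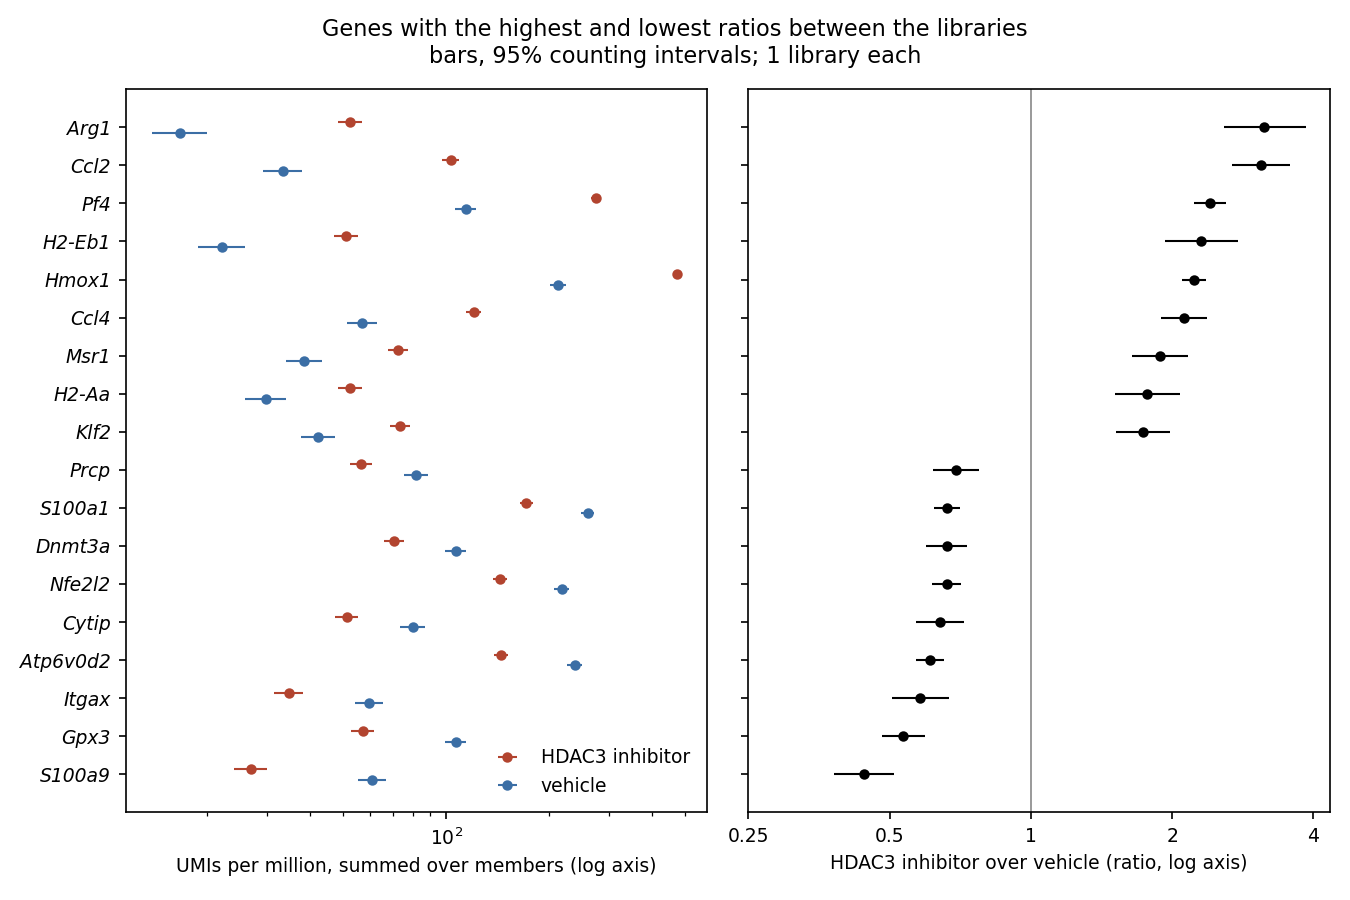
Of the 20 genes with the highest and lowest ratios between the libraries, 18 are drawn; left, CPM (log axis) summed over HDAC3 inhibitor members (red) and vehicle members (blue), right, the ratio HDAC3 inhibitor over vehicle (log axis), with bars for 95% counting intervals and 1 library per group. Ratios run between 3.14 for Arg1 and 0.44 for S100a9. No interval shown reaches 1, but the genes were picked for these ratios, so that is no test.

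Arg1, the enzyme that splits arginine to ornithine and urea and a marker of repair-type macrophages in mice, was at 52.4 CPM in HDAC3 inhibitor members and 16.7 CPM in vehicle members, a ratio of 3.14 (2.57 to 3.86). A single HDAC3 inhibitor cell held 10.8% of the Arg1 UMIs of its library and a single vehicle cell 41.9% of those of its own. Without the top cell of each library the ratio was 4.78. In the largest cluster of members the ratio of Arg1 was 1.83. Hmox1, which breaks haem down to biliverdin, carbon monoxide and iron, was at 473 CPM in HDAC3 inhibitor members and 213 CPM in vehicle members, a ratio of 2.22 (2.10 to 2.36). The top cell held 6.94% of the Hmox1 UMIs among HDAC3 inhibitor members and 19.7% among vehicle members. Applying the rule to cells thinned to 5000 UMIs brought the ratio of Hmox1 to 1.22. That setting admits 36 (inhibitor) and 27 (vehicle) cells excluded at full depth. It also loses 37 (inhibitor) and 17 (vehicle) members of at least 5000 UMIs, and the part of each in the ratio was not tested. Msr1, a scavenger receptor for modified lipoproteins, was at 72.4 CPM in HDAC3 inhibitor members and 38.5 CPM in vehicle members, a ratio of 1.88 (1.64 to 2.17).

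Gpx3 was at 57.0 CPM in HDAC3 inhibitor members and 107 CPM in vehicle members (0.54, 0.48 to 0.59). Nfe2l2, which encodes NRF2, the factor that drives antioxidant genes, was at 144 (inhibitor) and 218 (vehicle) CPM (0.66, 0.62 to 0.71), and Itgax, which encodes CD11c, at 34.7 (inhibitor) and 59.6 (vehicle) CPM (0.58, 0.51 to 0.67). Gpx3, Nfe2l2 and Itgax were lower in HDAC3 inhibitor members under each of the 16 alternatives tried. Itgax did not keep that side within the 5 clusters of members described below. It was higher in HDAC3 inhibitor cells in 2 of the 5, with ratios of 0.23 to 2.65. S100a9 was at 26.8 CPM in HDAC3 inhibitor members and 60.7 CPM in vehicle members, and in the other kept cells at 7655 (inhibitor) and 14372 (vehicle) CPM. Of 8 measured neutrophil genes (at least 20 UMIs over both libraries), 6 were lower in HDAC3 inhibitor members, against 44.7% of all genes so measured. At least 1.5-fold lower were 5 of these, against 3.33% of all, and the list had a median log2 ratio of -1.10. Ngp was at 1.75 (inhibitor) and 7.55 (vehicle) CPM and Retnlg at 2.51 (inhibitor) and 6.55 (vehicle) CPM. S100a8, whose protein pairs with that of S100a9, was 1 of the 2 higher ones, at 128 (inhibitor) and 117 (vehicle) CPM in members and at 6608 (inhibitor) and 13766 (vehicle) CPM in the other cells. The part of other cells' RNA in the ratio of S100a9 was not tested.

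Most chemokines of the list stood higher in HDAC3 inhibitor members, the genes that draw monocytes among them. Of 16 measured (at least 20 UMIs over both libraries), 14 were higher, against 55.3% of all 10648 genes so measured, and 9 were at least 1.5-fold higher, against 6.79% of all. None of the list was 1.5-fold lower, against 3.33% of all. The list did not hold the chemokine Cxcl9, which went the other way. In cluster 2 of members, described below, Cxcl9 was at 2.08 CPM in HDAC3 inhibitor cells and 159 CPM in vehicle cells. It was found in 1.07% of the cells of that cluster. The median log2 ratio of the list was 0.86, beside 0.04 over all measured genes. Ccl2, a ligand of CCR2 that attracts monocytes, was at 103 CPM in HDAC3 inhibitor members and 33.3 CPM in vehicle members, a ratio of 3.09 (2.69 to 3.57), and 2.01 in the largest cluster of members. It was found in 32.0% (inhibitor) and 26.6% (vehicle) of members, and 1 cell of each library held 16.2% (inhibitor) and 19.2% (vehicle) of its UMIs. Ccl7, another ligand of CCR2, was at 29.0 CPM in HDAC3 inhibitor members and 5.98 CPM in vehicle members (4.84, 3.51 to 6.84). Pf4, a chemokine that platelets and macrophages make, was at 275 CPM in HDAC3 inhibitor members and 114 CPM in vehicle members, a ratio of 2.41 (2.23 to 2.61).

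Some chemokines rested on few cells. Cxcl10, an interferon-induced ligand of CXCR3, was at 39.9 CPM in HDAC3 inhibitor members and 14.2 CPM in vehicle members (2.80, 2.25 to 3.51), but 1 cell held 50.2% of its UMIs among HDAC3 inhibitor members and 1 cell 35.0% among vehicle members. Without these cells its log2 ratio was 1.09. Ccl4, an inflammatory chemokine, was at 121 CPM in HDAC3 inhibitor members and 56.9 CPM in vehicle members (2.12, 1.90 to 2.37), with 26.3% of the first sum in 1 cell. With the rule applied to thinned cells Ccl4 was lower in HDAC3 inhibitor members, at a log2 ratio of -0.61. Cxcl2 was at 189 (inhibitor) and 162 (vehicle) CPM, Cxcl16 at 157 (inhibitor) and 134 (vehicle) CPM and Ccl3 at 137 (inhibitor) and 106 (vehicle) CPM, each within 1.5-fold. Of 6 chemokine receptors, 4 were lower in HDAC3 inhibitor members, against 44.7% of all measured genes. At least 1.5-fold lower were 3 of these, against 3.33% of all, and the list had a median log2 ratio of -0.73. Among the lower receptors were Ccr2, the receptor for CCL2, at 7.43 (inhibitor) and 16.1 (vehicle) CPM (0.46, 0.35 to 0.61), and Cx3cr1, the fractalkine receptor, at 3.59 (inhibitor) and 9.12 (vehicle) CPM (0.39, 0.26 to 0.59). In the largest cluster alone the log2 ratio of Ccr2 was -0.02, and so was the median of the receptor list.

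All 21 interferon response genes were higher in HDAC3 inhibitor members, against 55.3% of all measured genes, and 8 of them at least 1.5-fold, against 6.79% of all, with a median log2 ratio of 0.40. Weighting each member alike brought that median to 0.22. Rsad2, which encodes the antiviral enzyme viperin, was at 42.6 CPM in HDAC3 inhibitor members and 10.1 CPM in vehicle members, a ratio of 4.21 (3.28 to 5.48), and a log2 ratio of 0.02 in the largest cluster. Isg15, a ubiquitin-like modifier, was at 148 (inhibitor) and 95.2 (vehicle) CPM (1.56, 1.43 to 1.71). The more abundant Bst2, which tethers viruses to the cell surface, was at 818 (inhibitor) and 687 (vehicle) CPM, and Ifitm3, which blocks viral entry, at 393 (inhibitor) and 297 (vehicle) CPM, both within 1.5-fold.

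MHC class II genes, which present antigen to CD4+ T cells, were carried by few members. Of 8 measured, 7 were higher in HDAC3 inhibitor members (55.3% of all measured genes) and 3 at least 1.5-fold (6.79% of all), with a median log2 ratio of 0.31. H2-Eb1 was at 50.9 CPM in HDAC3 inhibitor members and 22.1 CPM in vehicle members, with 41.0% (inhibitor) and 67.7% (vehicle) of its UMIs in 1 cell each, and H2-Aa was at 52.4 (inhibitor) and 29.6 (vehicle) CPM with 31.7% (inhibitor) and 50% (vehicle) in 1 cell each. With the rule applied to thinned cells, H2-Eb1, H2-Aa and H2-Ab1 were lower in HDAC3 inhibitor members, at log2 ratios of -0.08, -0.44 and -0.70. Of 11 MHC class I genes, 8 were lower in HDAC3 inhibitor members, against 44.7% of all measured genes, and 0 by 1.5-fold. H2-D1 was at 3918 (inhibitor) and 4562 (vehicle) CPM (0.86, 0.85 to 0.87) and B2m, the light chain of class I molecules, at 2566 (inhibitor) and 2976 (vehicle) CPM (0.86, 0.85 to 0.88).

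Of 12 genes of haem and iron handling, 8 were higher in HDAC3 inhibitor members, against 55.3% of all measured genes, and 2, Hmox1 and Slc40a1, at least 1.5-fold, against 6.79% of all, with a median log2 ratio of 0.24. Slc40a1, which encodes the iron exporter ferroportin, was at 11.02 (inhibitor) and 6.84 (vehicle) CPM (1.61, 1.15 to 2.29). The ratio was 1.23 (1.22 to 1.24) for Fth1 and 1.16 (1.16 to 1.17) for Ftl1, and Slc48a1, which moves haem out of lysosomes, was at 134 (inhibitor) and 95.2 (vehicle) CPM (1.41, 1.29 to 1.55). Of 16 genes of lipid uptake and droplets, 12 were higher (55.3% of all measured genes) and 2, Msr1 and Cd5l, at least 1.5-fold (6.79% of all), with a median of 0.21. Fabp5 had a ratio of 1.23 (1.22 to 1.24) and Plin2, which coats lipid droplets, was at 1092 (inhibitor) and 901 (vehicle) CPM (1.21, 1.18 to 1.25), while Fabp4 was at 211 (inhibitor) and 239 (vehicle) CPM (0.88, 0.83 to 0.94). Of 11 apolipoprotein and efflux genes, 8 were lower in HDAC3 inhibitor members, against 44.7% of all, and 0 by 1.5-fold, with a median of -0.10. Apoe had a ratio of 0.82 (0.82 to 0.83), and Abca1, which exports cholesterol, was at 246 (inhibitor) and 253 (vehicle) CPM. Cholesterol synthesis genes were low in both libraries, with Hmgcs1 at 21.5 (inhibitor) and 21.5 (vehicle) CPM. Of 14, 9 were lower, against 44.7% of all, with a median of -0.04.

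Lysosomal genes differed little between the libraries. Of 27 hydrolases and membrane proteins, 10 were higher in HDAC3 inhibitor members and 17 lower, against 55.3% and 44.7% of all measured genes. By 1.5-fold, 0 differed either way, and the list had a median log2 ratio of -0.04. Ctsd had a ratio of 1.01 (1.01 to 1.02), Ctsb of 0.98 (0.97 to 0.99) and Psap, the precursor of the saposins that help to break down sphingolipids, of 0.93 (0.92 to 0.95). Of 15 proton pump subunits other than Atp6v0d2, 6 were higher and 9 lower, beside the same shares of all genes. By 1.5-fold, 0 differed, and the list had a median of -0.01. The osteoclast gene Acp5, an acid phosphatase, was at 280 (inhibitor) and 248 (vehicle) CPM (1.13, 1.06 to 1.20).

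Glycolysis and mitochondrial genes differed in opposite directions. Of 19 glycolysis and hypoxia genes, 17 were higher in HDAC3 inhibitor members, against 55.3% of all measured genes, with a median log2 ratio of 0.23. At least 1.5-fold higher was 1, against 6.79% of all. Gapdh was at 1530 (inhibitor) and 1308 (vehicle) CPM and Pkm, a pyruvate kinase, at 509 (inhibitor) and 411 (vehicle) CPM. Of 13 genes of the mitochondrial genome, 11 were lower, against 44.7% of all measured genes, and 0 by 1.5-fold, with a median of -0.20, and mt-Co3, a subunit of cytochrome oxidase, was at 4093 (inhibitor) and 5151 (vehicle) CPM. The median share of mitochondrial UMIs per member was 2.08% for HDAC3 inhibitor members and 2.42% for vehicle members, and the part of RNA quality in these values was not tested.

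Against 55.3% of all measured genes, 10 of 15 antioxidant genes were higher in HDAC3 inhibitor members. Of the 15, 2, Gpx3 and Nfe2l2, were at least 1.5-fold lower (3.33% of all). Genes of matrix and proteases were higher in 11 of 15 cases, 3 at least 1.5-fold (6.79% of all), and 1 was at least 1.5-fold lower (3.33% of all). They were led in abundance by Spp1 with a ratio of 1.29 (1.28 to 1.29). Fn1, fibronectin, was at 106 (inhibitor) and 75.8 (vehicle) CPM (1.40, 1.26 to 1.55). Mmp12, the macrophage elastase, was at 13.4 CPM in HDAC3 inhibitor members and 4.70 CPM in vehicle members, but 1 HDAC3 inhibitor cell held 80.6% of the first sum, and without the top cell of each library its log2 ratio was -0.22. Growth factor genes were lower in 7 of 10 cases, against 44.7% of all, and 1 was at least 1.5-fold lower (3.33% of all), with a median of -0.12. Among them Igf1 was at 205 (inhibitor) and 151 (vehicle) CPM (1.36, 1.26 to 1.46) and Vegfa, vascular endothelial growth factor A, at 154 (inhibitor) and 184 (vehicle) CPM (0.84, 0.78 to 0.90). In the list of phagocytic receptors and bridging proteins 10 of 17 were higher, near the share of all genes, with a median of 0.05, and Trem2, a lipid-sensing receptor, was at 2499 (inhibitor) and 2505 (vehicle) CPM.

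Of 15 monocyte genes, 7 were higher in HDAC3 inhibitor members and 8 lower, against 55.3% and 44.7% of all measured genes. At least 1.5-fold higher were 4, S100a6, Ly6c2, Clec4e and Plac8, against 6.79% of all measured genes, and at least 1.5-fold lower were 2, Ccr2 and Ifitm6, against 3.33% of all. S100a6, a calcium-binding protein, was at 437 (inhibitor) and 257 (vehicle) CPM (1.70, 1.61 to 1.79) and Ly6c2, a surface antigen of inflammatory monocytes that has near-identical copies in the genome, had a ratio of 1.70 (1.51 to 1.91). Clec4e, a receptor for mycobacterial glycolipids, was at 47.7 (inhibitor) and 28.4 (vehicle) CPM (1.68, 1.43 to 1.99), while Plac8 had 63.6% of its UMIs among HDAC3 inhibitor members in 1 cell. Coagulation genes were higher in 7 of 11 cases, complement in 6 of 12, macrophage transcription factors in 13 of 19, inflammatory cytokines in 8 of 11, immediate-early and heat shock genes in 11 of 20, S phase genes in 10 of 14, alternative activation genes in 4 of 7, osteoclast genes in 4 of 6, border macrophage genes in 8 of 11 and microglial genes in 5 of 10. With 55.3% of all measured genes higher and at most 1 gene of each of these lists past 1.5-fold in each direction, these counts give no result about the lists. Thbs1, thrombospondin, was at 563 (inhibitor) and 564 (vehicle) CPM, and C1qb at 4061 (inhibitor) and 3884 (vehicle) CPM. Il1b, interleukin 1 beta, was at 98.9 (inhibitor) and 116 (vehicle) CPM.

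Markers of other cell types differed between the libraries too, at low levels. Of 8 endothelial genes, 7 were higher in HDAC3 inhibitor members, against 55.3% of all measured genes. At least 1.5-fold higher were 4, against 6.79% of all, and the list had a median log2 ratio of 0.67. However, 1 cell of each library held 47.1% (inhibitor) and 59.1% (vehicle) of the UMIs of Cldn5. The same shares of all genes apply to the counts of higher genes that follow in this paragraph. The astrocyte and ependymal genes measured were all 4 at least 1.5-fold higher, with a median of 1.33, in sums over the list of 18.3 (inhibitor) and 5.70 (vehicle) CPM. Both measured fibroblast and mural genes were higher, with a median of 1.17, in sums of 9.19 (inhibitor) and 6.41 (vehicle) CPM. Of the oligodendrocyte genes 6 of 8 were higher, with a median of 0.30. The Schwann cell genes went the other way. All 3 measured were lower, against 44.7% of all measured genes, and 1 at least 1.5-fold, against 3.33% of all. Their median was -0.41, in sums over the list of 67.6 (inhibitor) and 101 (vehicle) CPM. Most neutrophil genes, given above, were lower too. The part of this RNA in the ratios of the other lists was not tested.

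**Figure D3:**
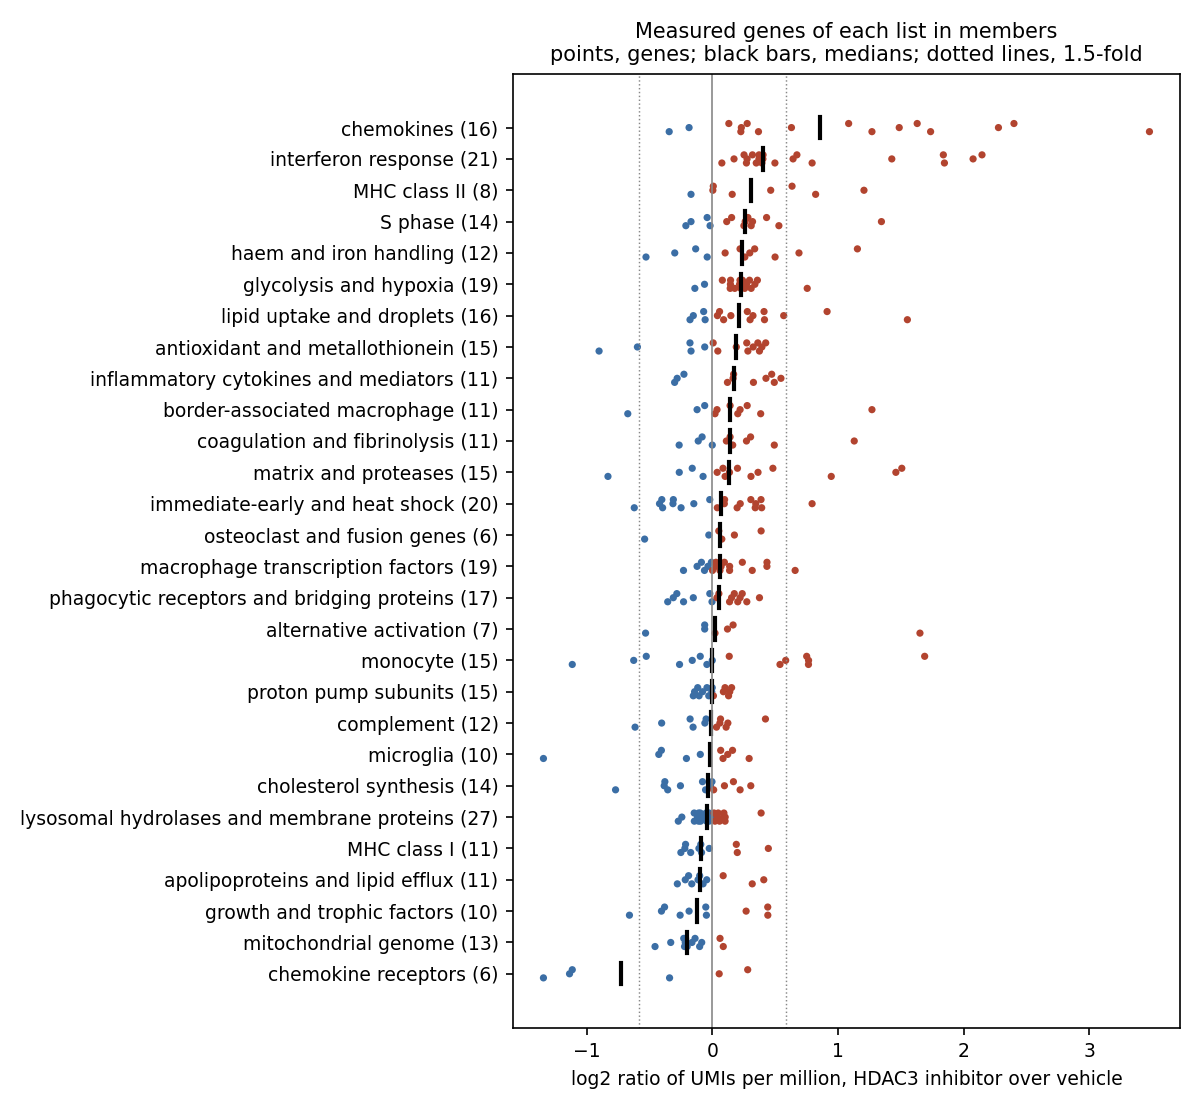
Log2 ratio of CPM, HDAC3 inhibitor over vehicle (x axis), for each measured gene (point) of the lists on the y axis, with the number of genes in brackets; black bars are medians and dotted lines mark 1.5-fold. Among the lists drawn, which leave out those of other cell types, chemokines (median 0.86) and interferon genes (0.40) lie furthest right and chemokine receptors (-0.73) furthest left, while lysosomal genes (-0.04) sit close to 0.

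Within the class, Spp1, Apoe and Lyz2 had the highest variance over mean by the lower of the 2 libraries. That measure favours abundant genes. Each cell was thinned to 5000 UMIs, which left 478 HDAC3 inhibitor members and 236 vehicle members, as 7 and 1 were shallower. The median variance over mean of 6015 genes was 1.05 in both libraries, near the value of 1 that counting alone gives. Spp1 had the highest values, 206 in HDAC3 inhibitor members and 185 in vehicle members. The lowest 10% of cells held at most 17 (inhibitor) and 14 (vehicle) thinned UMIs of Spp1, the median cell 107.5 (inhibitor) and 85.5 (vehicle), the highest 10% at least 436 (inhibitor) and 294.5 (vehicle), and the top cell 1199 (inhibitor) and 975 (vehicle). Apoe had medians of 302.5 (inhibitor) and 400 (vehicle) thinned UMIs and maxima of 1676 (inhibitor) and 899 (vehicle) thinned UMIs. Apoe and Lyz2 were spread rather evenly over cells. The top 10% of cells held 20.2% (inhibitor) and 17.6% (vehicle) of the thinned UMIs of Apoe. For Lyz2 they held 19.7% (inhibitor) and 18.4% (vehicle). Fabp5 had medians of 33 (inhibitor) and 21 (vehicle) with the highest 10% of cells at 76.3 (inhibitor) and 63.5 (vehicle) or more.

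Other genes sat in a small group of cells. The top 10% of cells held 96.5% of the thinned UMIs of Cxcl2, a neutrophil attractant, among HDAC3 inhibitor members and 95.9% among vehicle members, and 1 cell reached 136 (inhibitor) and 63 (vehicle) thinned UMIs while the median cell had 0. For Hmox1 the top 10% held 71.6% (inhibitor) and 67.5% (vehicle), and for Fabp4 66.1% (inhibitor) and 80.7% (vehicle). Arg1, H2-Aa and H2-Eb1 were found wholly within the top 10% of thinned cells in both libraries. C1qa had medians of 7 (inhibitor) and 7 (vehicle) thinned UMIs, with the highest 10% of cells at 32 (inhibitor) and 29 (vehicle) or more.

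Cells with more Gpnmb held more Fabp5 and more of the summed lysosomal list. Of 905 genes with at least 0.5 UMIs per thinned cell, Fabp5 had the highest Spearman's rho with Gpnmb by the lower of the 2 libraries, 0.56 across 478 HDAC3 inhibitor members and 0.63 across 236 vehicle members. In the 119 HDAC3 inhibitor and 59 vehicle members lowest in Gpnmb, Fabp5 averaged 13.5 (inhibitor) and 8.73 (vehicle) thinned UMIs, and in as many highest in Gpnmb 52.0 (inhibitor) and 43.8 (vehicle). Ctsb followed with rho of 0.59 (inhibitor) and 0.54 (vehicle), Ctsd with 0.55 (inhibitor) and 0.52 (vehicle) and Psap with 0.60 (inhibitor) and 0.52 (vehicle). Pld3, a lysosomal nuclease, had 0.43 (inhibitor) and 0.51 (vehicle), Lamp1, a lysosomal membrane protein, 0.41 (inhibitor) and 0.36 (vehicle), and Cd63, a protein of late endosomes, 0.38 (inhibitor) and 0.37 (vehicle). The summed lysosomal list had rho of 0.68 (inhibitor) and 0.63 (vehicle), lipid uptake 0.55 (inhibitor) and 0.59 (vehicle), the proton pump 0.26 (inhibitor) and 0.41 (vehicle) and haem and iron 0.31 (inhibitor) and 0.38 (vehicle). Not all genes of these kinds went this way: the lysosomal protease Ctsc had -0.29 (inhibitor) and -0.32 (vehicle), and the summed apolipoprotein and efflux list -0.11 (inhibitor) and -0.20 (vehicle). The cells of a correlation share a library and a fixed total, so a gene that takes more of the total leaves less to others, and these are descriptions. The ranking rule was chosen after the class had been described.

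Genes lower where Gpnmb was higher included Tmsb4x and interferon-induced genes. Tmsb4x had rho of -0.38 in HDAC3 inhibitor members and -0.38 in vehicle members, and Ifi27l2a, an interferon-induced gene, -0.34 (inhibitor) and -0.37 (vehicle). Ifi27l2a averaged 2.50 (inhibitor) and 3.03 (vehicle) thinned UMIs in the cells lowest in Gpnmb and 0.62 (inhibitor) and 0.53 (vehicle) in those highest. Csf1r had -0.25 (inhibitor) and -0.39 (vehicle), and Ifitm3 -0.25 (inhibitor) and -0.40 (vehicle). The summed interferon list had rho of -0.37 (inhibitor) and -0.43 (vehicle), chemokines -0.24 (inhibitor) and -0.33 (vehicle), immediate-early genes -0.27 (inhibitor) and -0.29 (vehicle) and MHC class II -0.25 (inhibitor) and -0.22 (vehicle). Of the markers beside Gpnmb, Ms4a7 had rho of -0.20 (inhibitor) and -0.19 (vehicle), F7 0.28 (inhibitor) and 0.27 (vehicle) and Atp6v0d2 0.11 (inhibitor) and 0.24 (vehicle). The rule chose members by the sum of these markers and Gpnmb, so a cell low in Gpnmb needed UMIs of another marker. The marker correlations are therefore not free of the rule and are descriptions only. The summed lipid uptake list and the summed haem and iron list had rho of 0.58 (inhibitor) and 0.70 (vehicle) with each other. These sums rest on few genes: Fabp5 gave 8308 (inhibitor) and 6750 (vehicle) CPM of the 10637 (inhibitor) and 8812 (vehicle) CPM of the lipid list, and the ferritin chains nearly all of the 62564 (inhibitor) and 52017 (vehicle) CPM of the iron list.

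**Figure D4:**
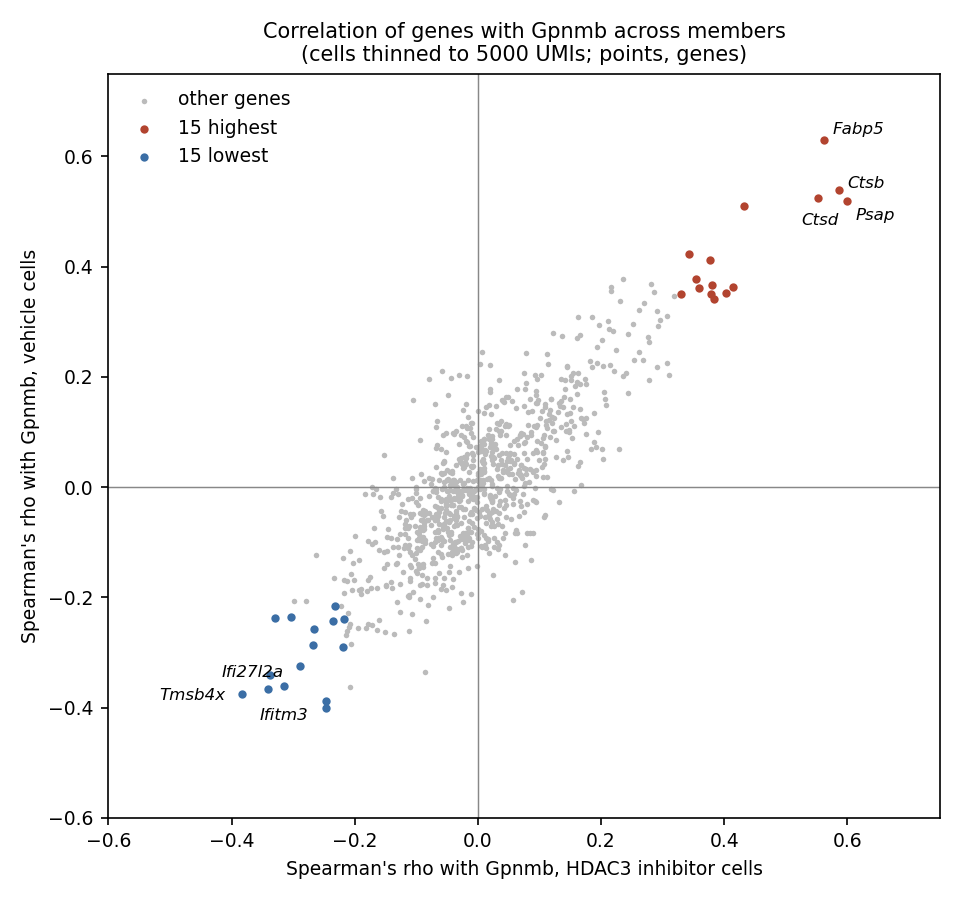
Spearman's rho of each of 905 genes with Gpnmb across HDAC3 inhibitor members (x axis, 478 cells) and vehicle members (y axis, 236 cells), with the 15 highest genes in red and the 15 lowest in blue. The points run along the diagonal, with Fabp5, Psap, Ctsb and Ctsd at the upper right and Tmsb4x and Ifi27l2a at the lower left.

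Clustering the members of both libraries together gave 5 clusters, described by their leading genes. Their sizes are not compared between the libraries, because the levels of some leading genes that set them, such as Ccl2, Hmox1 and Arg1 of cluster 1, Atp6v0d2 of cluster 3 and Cytip of cluster 4, were among the highest and lowest ratios between the libraries. Cluster 1 (159 HDAC3 inhibitor cells and 42 vehicle cells) was led by Ccl2, Hmox1, Ly6c2, Arg1, S100a6, Cd36, Sdf2l1 and Tubb4b. Cd36, a scavenger receptor for oxidised lipids, was at 208 CPM in its HDAC3 inhibitor cells and 188 CPM in its vehicle cells, against 72.9 (inhibitor) and 65.7 (vehicle) CPM in the other members. Lgals3 was at 5817 (inhibitor) and 5768 (vehicle) CPM in cluster 1, against 3168 (inhibitor) and 3212 (vehicle) CPM elsewhere, and Apoe was low at 50202 (inhibitor) and 54667 (vehicle) CPM.

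Cluster 2 (119 HDAC3 inhibitor cells and 68 vehicle cells) held the least Gpnmb, 3468 (inhibitor) and 3587 (vehicle) CPM, against 5932 (inhibitor) and 6349 (vehicle) CPM in the other members, and the most Ms4a7, 915 (inhibitor) and 819 (vehicle) CPM. Its leading genes included Cxcl9, H2-Eb1, Cxcl10, Ifit3, Tmem176a, H2-Aa and Tmem176b. Several of these were in a small part of its cells: Cxcl9 in 1.07%, H2-Eb1 in 10.2%, Cxcl10 in 13.9%, H2-Aa in 13.9% and Ifit3 in 19.8%. Tmem176a was found in 42.2% and Tmem176b, a membrane protein of myeloid cells, in 52.4%. Fabp5 was at 3203 (inhibitor) and 2837 (vehicle) CPM in cluster 2, against 9593 (inhibitor) and 7935 (vehicle) CPM elsewhere, and Apoe was high at 82367 (inhibitor) and 95118 (vehicle) CPM.

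Cluster 3 (108 HDAC3 inhibitor cells and 64 vehicle cells) held the most Gpnmb, 7065 (inhibitor) and 6993 (vehicle) CPM, and was led by Mfge8, S100a1, Capn15, Hsph1, Atp6v0d2, Npy, Tst and C77080. Mfge8, which bridges apoptotic cells to phagocytes, was at 382 (inhibitor) and 281 (vehicle) CPM against 79.8 (inhibitor) and 45.8 (vehicle) CPM elsewhere. Cluster 4 (68 HDAC3 inhibitor cells and 42 vehicle cells) was led by Cytip, S100a4, Clec4e, Cd14, Hp, Runx3, Ccr1 and Fn1, and Cd14, the co-receptor for lipopolysaccharide, was at 1012 (inhibitor) and 1463 (vehicle) CPM against 447 (inhibitor) and 419 (vehicle) CPM elsewhere. Cluster 5 (31 HDAC3 inhibitor cells and 21 vehicle cells) was led by Slain1, Ackr1, Efnb3, Klk6, Ermn, Tmem252, Ptprb and Hapln2, among them oligodendrocyte and endothelial genes, and each was in at most 13.5% of its cells. The median mitochondrial share of cluster 5 was 3.85%.

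**Figure D5:**
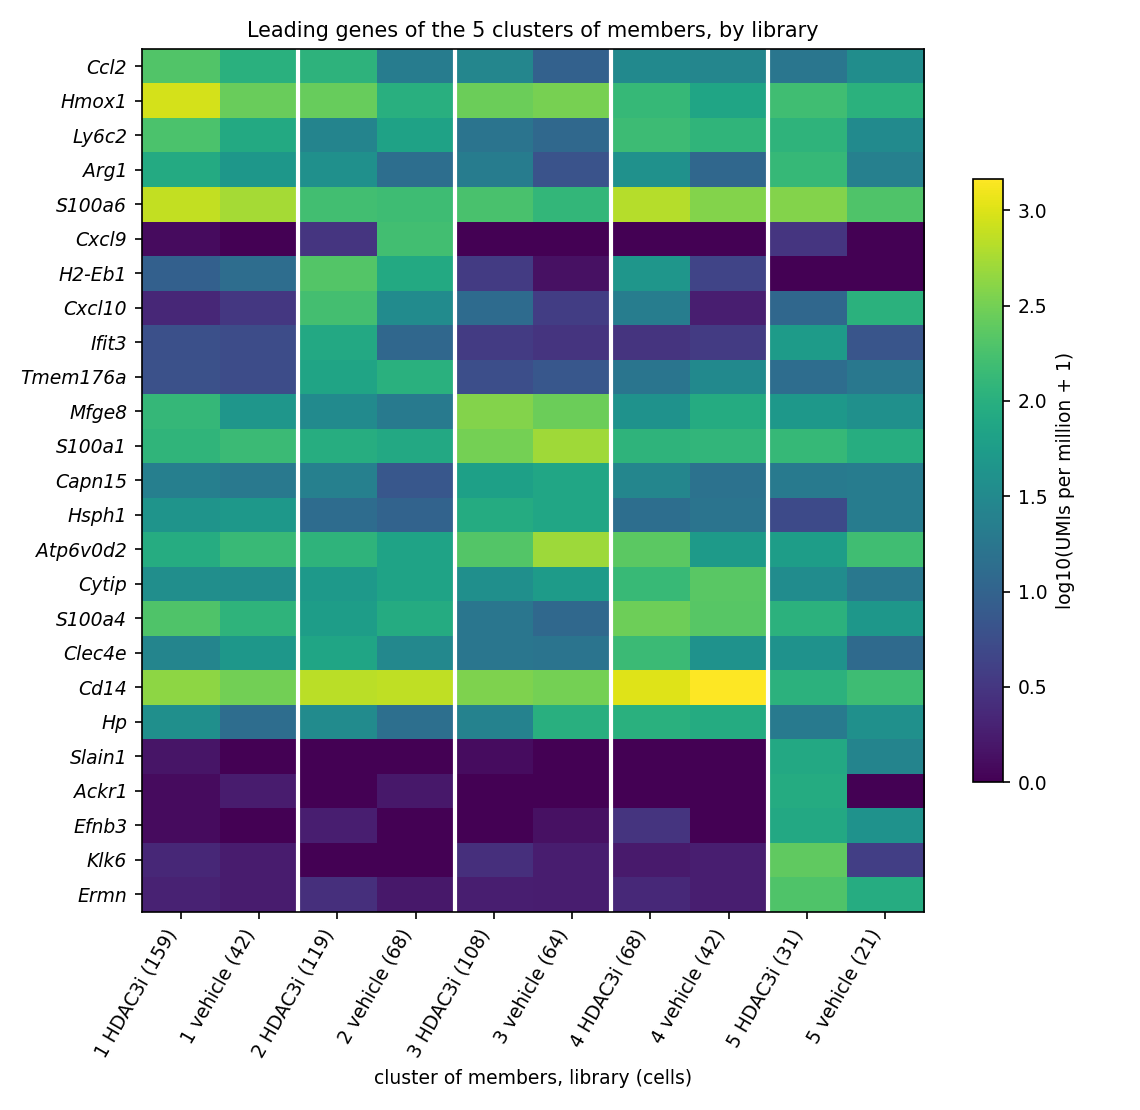
Level of 5 of the leading genes (rows) of each of the 5 clusters of members, by cluster and library (columns, cells in brackets), as log10 of CPM plus 1. Most leading genes are brightest in their own cluster in both libraries, while Cxcl9 and Ackr1 stand out in 1 library alone.

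Within clusters, some ratios between the libraries held their side and others did not. Of the 20 genes with the highest and lowest ratios, 18 had at least 20 UMIs in each of the 5 clusters, and 10 of these lay on 1 side in all 5. Pf4 was higher in HDAC3 inhibitor cells of every cluster, by 1.62-fold to 4.67-fold, and Arg1 by 1.83-fold to 5.60-fold. Vehicle cells held 62 of their 117 UMIs of Arg1 in cluster 1, where its ratio was 1.83, and 8 in cluster 5, where it was 5.60. The vehicle cell with 41.9% of the Arg1 UMIs of its library lies in cluster 1, as no other cluster held as many. Gpx3 was lower in every cluster, at ratios of 0.34 to 0.60, as was Nfe2l2 at 0.62 to 0.78. Ccl2 was higher in HDAC3 inhibitor cells of 4 of the 5 clusters, with ratios of 0.48 to 5.37. The ratio of 0.48 was in cluster 5, from 8 (inhibitor) and 12 (vehicle) UMIs. Hmox1 was at 922 CPM in HDAC3 inhibitor cells and 280 CPM in vehicle cells of cluster 1, a ratio of 3.30, and at 286 (inhibitor) and 331 (vehicle) CPM in cluster 3, a ratio of 0.86. Atp6v0d2 was at 205 (inhibitor) and 497 (vehicle) CPM in cluster 3, a ratio of 0.41, but at 230 (inhibitor) and 51.5 (vehicle) CPM in cluster 4, a ratio of 4.46. Rsad2 was at 147 CPM in HDAC3 inhibitor cells and 8.59 CPM in vehicle cells of cluster 2, and at 10.6 (inhibitor) and 10.5 (vehicle) CPM in cluster 1. Clusters were found from the same counts, so these values describe where a ratio lies.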

How the data were processed

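Injured mouse spinal cord was profiled by 10x Genomics 3' version 3 single-cell RNA-seq in 2 libraries. The deposited values are unnormalized UMI counts per gene and cell barcode, which the authors made using version 3.0.2 of Cell Ranger, per the file headers. The genome build was mm10 and Seurat was used too, per the submitters' processing notes. The treatment of reads that map to several genes was not given, so genes with near-identical copies (Ly6c2, MHC genes, chemokines) are uncertain. The members and gene lists were chosen with earlier results of these data known.

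UMIs were summed over the members of each library and scaled to 1000000 UMIs (CPM). Ratios are HDAC3 inhibitor over vehicle, with exact conditional binomial 95% intervals, and levels have exact Poisson ones. With 1 library per group no test was made. Ranked genes had 100 or more UMIs in all and 50 CPM or more in the higher library, and lists were counted over genes with at least 20 UMIs. Named genes were the rule genes, the 10 highest and 10 lowest ratios (no mitochondrial, ribosomal, haemoglobin, unnamed or duplicated-symbol genes), up to 5 of the most abundant genes of each list, the 20 most abundant and the 20 most variable genes, the leading genes against each class and of each cluster, and Hdac3; other list genes, such as those past 1.5-fold, were named after their values were seen. Some genes that this rule names are not reported here. Heterogeneity was measured with cells thinned to 5000 UMIs. Clusters came from Leiden clustering (20 principal components, 15 neighbours, resolution 0.5). Microglia, border-associated macrophages and monocytes were defined by at least 10 UMIs of their own markers and few of other classes. Scrublet called 21 HDAC3 inhibitor cells (0.706%) and 6 vehicle cells (0.276%), 8 and 1 of them members; the second share is too low for a caller that worked, and called cells stayed in. The ratio intervals were tested on simulated data. Tools were Python 3.11.15, numpy 2.4.6, scipy 1.17.1, pandas 2.3.3, scanpy 1.11.5, scikit-learn 1.9.0, leidenalg 0.10.2, igraph 0.11.9 and matplotlib 3.10.9.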

Additional observations from a re-analysis of the deposited data

Results flagged for a closer look

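Among 2227 genes compared, for the 5 given here the ratio between the libraries lay on opposite sides in members and in microglia, at least 1.5-fold from 1 in each and with both 95% intervals clear of 1; genes compared had at least 20 UMIs in each sum. With 1 library per group the difference was not tested, and each value is the log2 ratio in members minus that in microglia. Ccl7 differed by 4.02: members had 29.0 CPM in the HDAC3 inhibitor library and 5.98 CPM in the vehicle library, and microglia had 7.84 (inhibitor) and 26.3 (vehicle) CPM. H2-Aa differed by 2.42, with 52.4 (inhibitor) and 29.6 (vehicle) CPM in members and 5.57 (inhibitor) and 16.9 (vehicle) CPM in microglia. H2-Eb1 differed by 1.99, with 50.9 (inhibitor) and 22.1 (vehicle) CPM in members and 7.34 (inhibitor) and 12.6 (vehicle) CPM in microglia. Both MHC genes rested on few members. Ly6c2, which the monocyte rule used, differed by 2.03, with 94.6 (inhibitor) and 55.7 (vehicle) CPM in members and 8.35 (inhibitor) and 20.1 (vehicle) CPM in microglia. Usp18, which removes the ISG15 modifier from proteins, differed by 1.36, with 14.5 (inhibitor) and 9.12 (vehicle) CPM in members and 13.4 (inhibitor) and 21.7 (vehicle) CPM in microglia.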

How the results depend on the processing

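No paired analysis was possible because each group is 1 library. Of 16 alternatives 12 were planned, and 4 were chosen after seeing the data: clusters weighted alike, the largest cluster alone, members without the cluster led by myelin and endothelial genes, and each gene without its richest member. The log2 ratio of the share of members was 0.58 and 0.48 to 0.58 over 5 alternatives. The 16 higher and 9 lower genes became 41 and 24 with members thinned to 5000 UMIs, 3570 and 1919 with no minimum of UMIs or CPM, and 40 and 26 in the largest cluster; 14 were lower with the rule applied to thinned cells and 41 higher with clusters weighted alike. The median log2 ratio of interferon genes was 0.22 with each member weighted alike, 0.33 with members thinned, 0.23 without the 5% deepest members and 0.34 in the largest cluster. That of mitochondrial genes was -0.22 under median-of-ratios scaling, -0.23 with a total without mitochondrial, ribosomal and haemoglobin genes, and -0.058 in the largest cluster, where lysosomal genes had -0.12 and glycolysis genes 0.085. These scalings shifted all log2 ratios by -0.02 and -0.03. The chemokine median kept its sign under all 16, between 0.55 and 0.96, and the chemokine receptor median between -0.80 and -0.02. With the rule applied to thinned cells the log2 ratio turned over for H2-Eb1 (-0.079), Ccl4 (-0.61), H2-Aa (-0.44), Klf2 (-0.027), H2-Ab1 (-0.70) and Cd5l (-0.77). In the largest cluster it did so for H2-Eb1 (-0.60), Ccl4 (-0.022), H2-Aa (-0.44), Cytip (0.056), H2-Ab1 (-1.17), Ccl12 (-0.016) and Usp18 (-0.016), and without the richest member for Mmp12 (-0.22). The cause was not tested. Over 188 genes and all alternatives, 2413 values stayed within the counting interval of the reported one, 573 lay outside it and 14 of genes past the fold turned over. Genes near the minimum of 20 UMIs are limited by depth.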
